A study of Homo sapiens with 6 samples.

Results

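Among the transcript models counted by ribosome profiling in HEK293T-REx cells, 496 carried fewer footprints in the aglaiacized line than in the naive line when both had received only the solvent DMSO. They are called lost models here. They were picked from the 26855 models with a mean of at least 50 counts over the 2 naive DMSO libraries, of which they made up 1.85%, and from 38543 models in all. For each model, CPM values, which are counts scaled to the total of their library, were averaged over the 2 DMSO libraries of each line. The DMSO line difference was log2((mean aglaiacized CPM + 1)/(mean naive CPM + 1)), minus its median of -0.06 over the 26855 models. A lost model had a DMSO line difference of -0.80 or less, with both aglaiacized values below both naive values. The second condition removed no model. The mirror rule gave 239 models that were higher in aglaiacized cells. Since the DMSO libraries chose the lost models, their DMSO values are given as a description, without a test.

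The 6 libraries came from 1 established human line, HEK293T-REx, an embryonic kidney line that expresses the tetracycline repressor. The 4 groups were naive cells in DMSO and aglaiacized cells in DMSO, with 2 libraries each, and naive cells with RocA and aglaiacized cells with RocA, with 1 library each. The labels do not explain the word aglaiacized. The series title names Aglaia resistance, and the study describes a line whose eIF4A1 was given residues of the Aglaia plant, which tolerates its own compound. The promoter of that gene, the number of clones behind either line, and the dose and time of RocA, were not used here. The labels do not state whether the DMSO replicates were separate cultures. The p-values thus reflect the spread among these libraries alone, and that spread may be technical. Messenger RNA was not measured in the libraries used here, so fewer ribosomes per message and less message cannot be told apart in any value below.

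Ribosome profiling sequences the short RNA fragments that a ribosome shields from nuclease, and the count on a coding region follows the number of ribosomes on it. eIF4A is the helicase that prepares the 5′ end of a messenger RNA for the scanning ribosome. RocA, or rocaglamide A, is a compound of Aglaia plants that clamps eIF4A onto purine-rich RNA and so blocks scanning on some messages more than on others. The lost models were followed in the RocA libraries, which had no part in choosing them.

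The libraries held 18459239 and 18731972 counts over all models in naive DMSO and 21337146 and 28428267 in aglaiacized DMSO. They held 8219273 counts in naive RocA and 8316797 in aglaiacized RocA. Every value is therefore a share of its own library, and no absolute change in translation was measured. The deposited tables list an identifier, a whole-number length and a count for each transcript. They do not pair identifiers with gene names, and the reference gene table held 0 of the lost models. Genes and sequences are therefore not named, and the lines were not checked against their eIF4A counts. Models are described by their listed length, whose unit is not stated and which is called length units below.

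In DMSO the lost models had a median line difference of -0.995, with quartiles of -1.28 and -0.87 and a lowest value of -4.28. Their median level was 10.9 and 10.6 CPM in the naive DMSO libraries and 4.24 and 3.90 CPM in the aglaiacized ones. The other 26359 models had medians of 12.5 and 12.6 CPM in naive DMSO and 12.3 and 12.2 CPM in aglaiacized DMSO. Summed, the lost models took 1.22% of the counts in either naive DMSO library and 0.518% and 0.482% in the aglaiacized DMSO libraries. In the edgeR fit, 495 of the 496 could be tested, and all 495 were lower in aglaiacized DMSO at an adjusted p under 0.05, against 16.6% of the 31237 models tested. The rule fixed that count, so nothing is read from it.

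**Figure D1:**
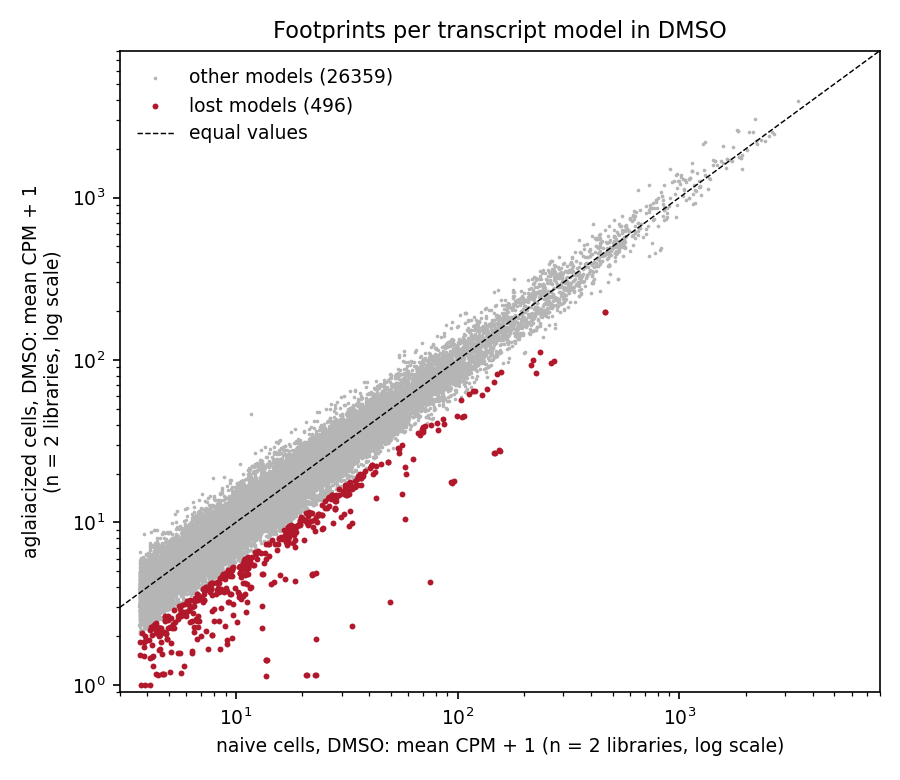
Mean CPM + 1 of each model in the 2 aglaiacized DMSO libraries (y axis, log scale) against that in the 2 naive DMSO libraries (x axis, log scale), with the 496 lost models in colour, the other models in grey and equal values on the dashed line. The lost models lie below the line, up to a naive mean of 462 CPM, where other models reach 3440 CPM. Most lost models are close to the boundary that the rule drew, and a few reach a mean near 0 CPM in aglaiacized cells.

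The word lost describes few of these models literally, since most kept counts in aglaiacized cells. Only 3 models, in 2 places of the tables, had 0 counts in both aglaiacized DMSO libraries. The model of 1729 length units had 55 and 60 counts in naive DMSO, 13 in naive RocA, and 0 in all 3 aglaiacized libraries. With a floor of 3 counts per library, it was at least 25.1-fold lower in aglaiacized DMSO and at least 4.38-fold lower in aglaiacized RocA. The neighbouring models of 869 and 814 length units were at 0 in both aglaiacized DMSO libraries, and at least 23.6-fold and 22.3-fold lower, with 1 count each in aglaiacized RocA. All such limits, and the intervals below, cover counting error only.

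The lowest DMSO line difference belonged to a model of 337 length units, 1 of 5 neighbouring lost models of 211 to 337 units. It had 21.9 and 22.3 CPM in naive DMSO and 0.05 and 0.25 CPM in aglaiacized DMSO. The aglaiacized values rest on 1 and 7 counts, so the size of the ratio is poorly known, and none is given. By the rule that chose identifiers to print, the 2 deepest losses with enough counts in both lines were uc004epr.3 and uc004efw.4. The first, of 1075 length units, had 76.2 and 71.8 CPM in naive DMSO against 3.19 and 3.38 CPM in aglaiacized DMSO, a 22.5-fold lower mean. The second, of 1091 length units, had 11.1 and 14.5 CPM against 0.37 and 0.46 CPM, a 30.7-fold lower mean. The SD over the 2 libraries was 3.09 CPM in naive and 0.13 CPM in aglaiacized DMSO for the first, and 2.38 and 0.06 CPM for the second.

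Lost models with many footprints are measured more precisely. The lost model with the most footprints, of 798 length units, had 469 and 455 CPM in naive DMSO and 209 and 183 CPM in aglaiacized DMSO, a 2.36-fold lower mean. A model of 552 units had 279 and 262 CPM in naive DMSO and 101 and 92.9 CPM in aglaiacized DMSO. One of 550 units combined a high level with a deep loss, with 151 and 157 CPM in naive DMSO and 25.9 and 27.5 CPM in aglaiacized DMSO.

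A replicate difference of at least 0.80 on the same log2 scale occurred in 2 of the 26855 models between the naive DMSO libraries and in 8 between the aglaiacized ones. The standard deviation of the replicate difference among lost models was 0.182 in naive and 0.216 in aglaiacized DMSO, against 0.161 and 0.193 over all 26855. The rule draws a line through a continuous range. The lost model nearest to it, of 673 length units, had 2.93 and 2.62 CPM in naive and 1.17 and 0.98 CPM in aglaiacized DMSO. The nearest model left out, of 354 units and with a difference of -0.799, had 19.1 and 20.3 CPM in naive and 11.5 and 9.32 CPM in aglaiacized DMSO. A lower mean count, as in the first, needs a larger ratio to reach the threshold because of the 1 CPM added to each mean.

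**Figure D2:**
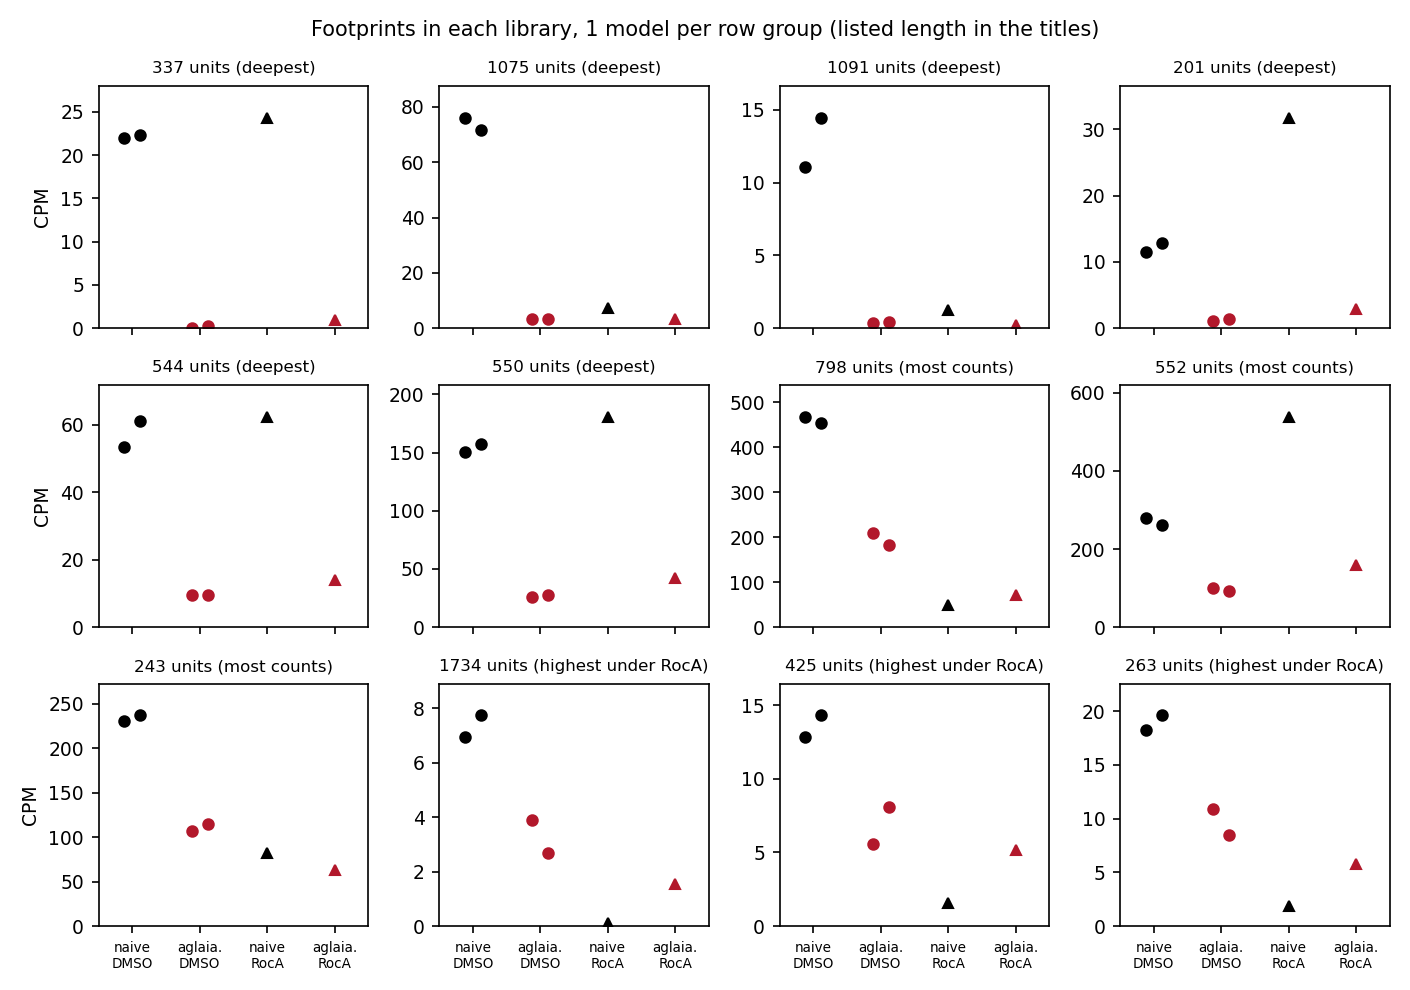
CPM in each library (y axis, from 0, linear) for 12 lost models by group (x axis): DMSO libraries as circles, RocA libraries as triangles, naive in black, aglaiacized in red. The first 6 panels show the deepest losses in DMSO, the next 3 the most counts and the last 3 the highest line difference under RocA, with row groups ranked by the median over their lost models and drawn by the model with the most naive counts; in the 337, 201, 544, 550 and 552 unit panels the naive RocA library stays far above the aglaiacized one, and in the 798, 1734, 425 and 263 unit panels the order turns.

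Many lost models were not separate events. Models listed next to each other often shared counts, a pattern seen when isoforms of 1 gene each count the same read. When lost models at most 10 rows apart in the tables were joined, the 496 fell into 193 row groups. Of these, 80 held 1 lost model, 48 held 2, 22 held 3, 14 held 4, 9 held 5 and 20 held 6 or more, and 416 of the 496 lost models sat in a row group with another. Of the 113 row groups of 2 or more, 95 held no other model that could have been chosen, and 18 did. Within row groups of 2 or more, the DMSO line difference, which the rule holds at -0.80 or less, spread over a median of 0.08, and in 86 of 113 by less than 0.20. Counts of models are therefore not counts of genes. Several main counts below are repeated with 1 model per row group, the one with the most naive DMSO counts. The rest are counts over models that may share reads.

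The largest row group held 17 lost models of 277 to 584 length units, and every model in its span was lost. Its DMSO line differences ran from -0.97 to -0.84. The model with the most counts had 17.1 and 19.5 CPM in naive DMSO, 8.998 and 8.34 CPM in aglaiacized DMSO, 10.9 CPM in naive RocA and 5.41 CPM in aglaiacized RocA. All 3 aglaiacized libraries were thus below all 3 naive ones. Other large row groups were mixed. One of models up to 1547 units held 15 lost models among 17, and one of models up to 2601 units held 11 among 20.

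Lost models were unevenly spread along the row order of the tables, which is the same in all 6. Whether that order follows the genome is not stated. In bins of 1000 rows, a size chosen after the data were seen, the median share of lost models was 0.98%, and 13 of 79 bins held none. The 6 densest bins held 205 of the 496 lost models (41.3%) and 58 of the 193 row groups (30.1%), with 2096 of the 26855 models (7.80%). Lost models made up 9.78% of the models in these 6 bins and 1.18% of those elsewhere. The 6 bins were picked for this share, so the contrast is a description. In the densest bin, rows 39001 to 40000, 41 of 322 models in 16 row groups were lost (12.7%). In rows 76001 to 77000 it was 41 of 335 models in 11 row groups (12.2%), and in rows 37001 to 38000 it was 40 of 344 in 9 row groups (11.6%). Rows 38001 to 39000 held 27 lost models, rows 54001 to 55000 held 23 and rows 55001 to 56000 held 33. Each of these 6 bins thus held lost models of several row groups. Row groups are set by a gap of 10 rows, so neighbouring ones may still share reads. Inside these 6 bins, the stretch of 100 rows with the most, 55001 to 55100, held 26 lost models among 53.

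The models around them that did not meet the rule were also read. In rows 76001 to 77000 the remaining models had a median DMSO line difference of -0.39, and 96.3% of them were below 0. Their line difference under RocA, computed the same way from the RocA libraries, had a median of -0.31, with 75.2% below 0. Both medians were the lowest of all 79 bins. Most of the remaining models of that stretch were thus lower in aglaiacized cells in both pairs of conditions. The bin was picked by DMSO losses, and these models may share reads with lost ones, so their DMSO values are a description. A DMSO lean also occurred where few models were lost. In rows 21001 to 22000, with 2 lost models, 82.2% of the remaining models were below 0 in DMSO and 43.5% under RocA. Rows 77001 to 78000, with 0 lost models, went the other way in DMSO, at 22.96%. Rows 54001 to 55000 resembled rows 76001 to 77000, with medians of -0.21 in DMSO and -0.28 under RocA among the remaining models. Rows 39001 to 40000 did not, with -0.26 in DMSO and 0.09 under RocA. In rows 37001 to 38000 the remaining models had medians of 0.07 and -0.13. Models gained by the mirror rule were few in the 6 bins, with 6 of 239.

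**Figure D3:**
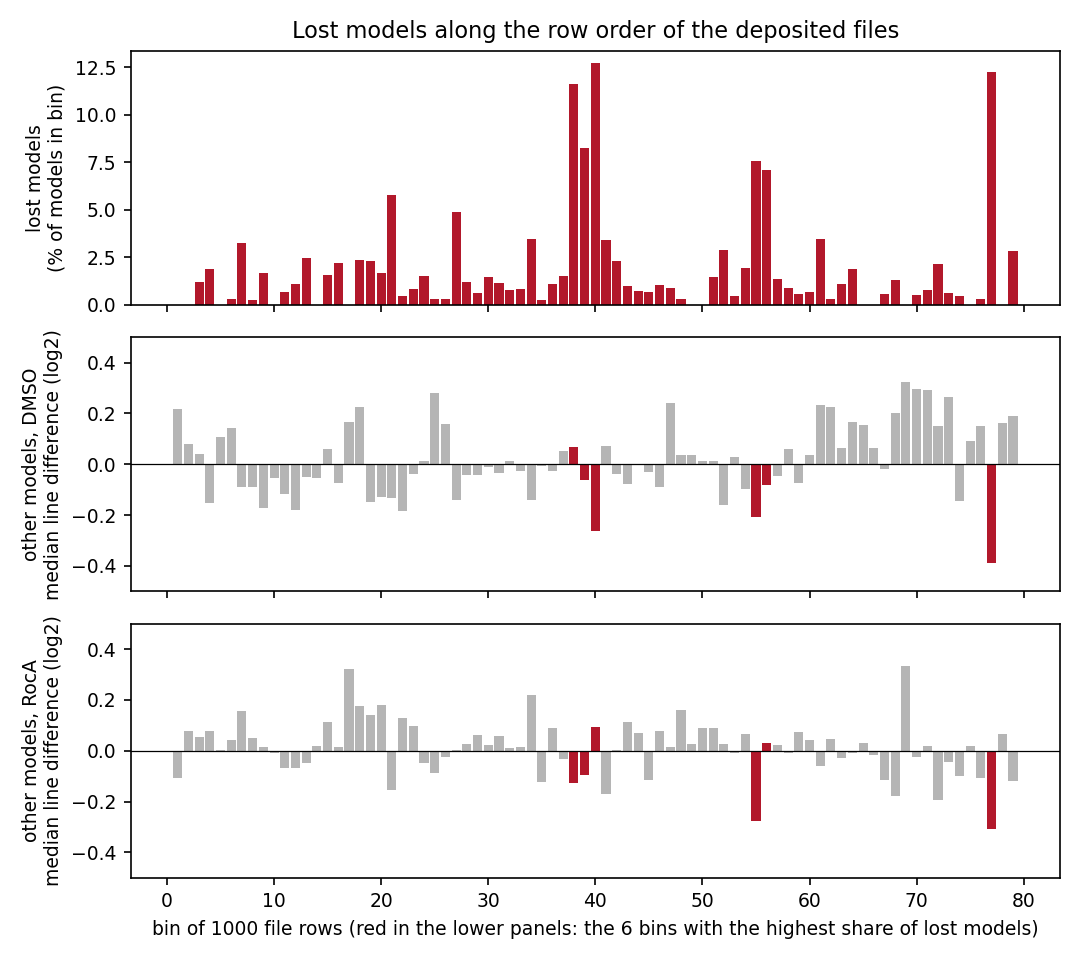
Share of lost models in percent (top), and median line difference of the remaining models in DMSO (middle) and under RocA (bottom), on the centred log2(CPM + 1) scale, in bins of 1000 rows in table order (x axis). The 6 densest bins, in red in the lower panels, hold 205 lost models, and bin 77 (rows 76001 to 77000) has the lowest median of the remaining models in both lower panels.

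The lost models had slightly longer listed lengths than the rest, a feature the rule did not use. Their median listed length was 489.5 units, with quartiles of 263 and 775, against 437 units with quartiles of 259 and 705 for the other models. At 2000 length units or more there were 26 lost models (5.24%) in 14 row groups, against 1.84% of the others. At 100 units or less there were 7 (1.41%), against 2.6% of the others. With 1 model per row group the median was 500 units, and 13 of 193 (6.74%) had 2000 or more. The other models were not reduced in this way, so these values are not like for like with theirs. Per 1000 length units, the median naive DMSO level was 24.0 CPM for lost models and 29.2 CPM for the others. No test was made over models, which share reads and are not replicates. Rows with equal counts in all 6 libraries had been merged in 69 lost models (13.9%) and in 10.7% of the others. A merged model took the longest length among its rows. How much this added to the difference in length was not tested.

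The RocA libraries gave the measurement that the rule had not used. The line difference under RocA compares aglaiacized RocA with naive RocA, and edgeR tested it over 31237 models with the spread taken from the DMSO pairs, because each line had 1 RocA library. Of 495 lost models tested, 247 (49.9%) were lower in aglaiacized cells at an adjusted p under 0.05, where 15.3% of all models tested were. With 1 model per row group it was 99 of 193 (51.3%). Called higher were 19 lost models (3.84%), where 12.5% of all were, and 7 of 193 with 1 per row group. The median fitted log2 fold change was -0.91 in lost models and 0.01 over all tested. Below, a line difference printed with an SE is this fitted value, with TMM scaling. A fold difference under RocA is a ratio of CPM without that scaling. Lower calls fell in 105 row groups, higher calls in 11, and both in 4. Without TMM scaling, 216 lost models were lower, where 9.63% of all were, and 30 higher, where 21.4% of all were, with the median of all models at 0.24. DESeq2, fitted to the same models, gave an adjusted p in this comparison for only 380 lost models, so its base differs from that of edgeR. It called 177 of the 380 lower, where 11.4% of all were, and 3 higher, where 8.07% of all were.

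On the scale of the rule itself, the centred line difference under RocA had a median of -0.77 in lost models, with quartiles of -1.19 and -0.27. The other models had a median of 0.01. In 238 lost models (48.0%) it was -0.80 or less, where 8.53% of the 26855 models were. It was below 0 in 420 (84.7%), against 49.3% of the other models. Another 182 lost models lay between -0.80 and 0, and 76 were at 0 or above. In 145 the line difference was more negative under RocA than in DMSO. Centring took 0.22 from each value under RocA. Without it, aglaiacized RocA CPM was below naive RocA CPM in 388 lost models (78.2%), against 34.6% of the others. Most lost models thus stayed lower in aglaiacized cells in a pair of libraries that had no part in choosing them, and a minority did not. The summed share of counts showed the same, at 0.953% in naive RocA and 0.472% in aglaiacized RocA.

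Deep losses carried over to RocA more often than shallow ones. Of the 35 lost models with a DMSO line difference of -2 or less, 31 were called lower under RocA and none higher, and their median under RocA was -1.48. Of 44 between -2 and -1.5, 30 were lower and none higher, with a median of -1.06. Of 162 between -1.5 and -1, 76 were lower and 6 higher, with a median of -0.74. Of 255 above -1, 110 were lower and 13 higher, with a median of -0.60. With 1 model per row group the 4 medians were -1.26, -1.08, -0.75 and -0.56, over 15, 17, 74 and 87 models. Of these, 13, 14, 36 and 36 were called lower under RocA, and 0, 0, 2 and 5 higher. Across the 496 lost models, the 2 line differences had a Spearman correlation of 0.328 and a Pearson correlation of 0.458, and across 193 row groups 0.358 and 0.449. The 2 differences share no library, but the models share reads, and the correlation carries no test. Because of the 1 CPM added to each mean, models with the fewest naive counts could not reach -2. The 1729-unit model, at 0 counts in both aglaiacized DMSO libraries, had a DMSO line difference of -1.97. Depth of loss and count level therefore cannot be told apart in these classes.

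**Figure D4:**
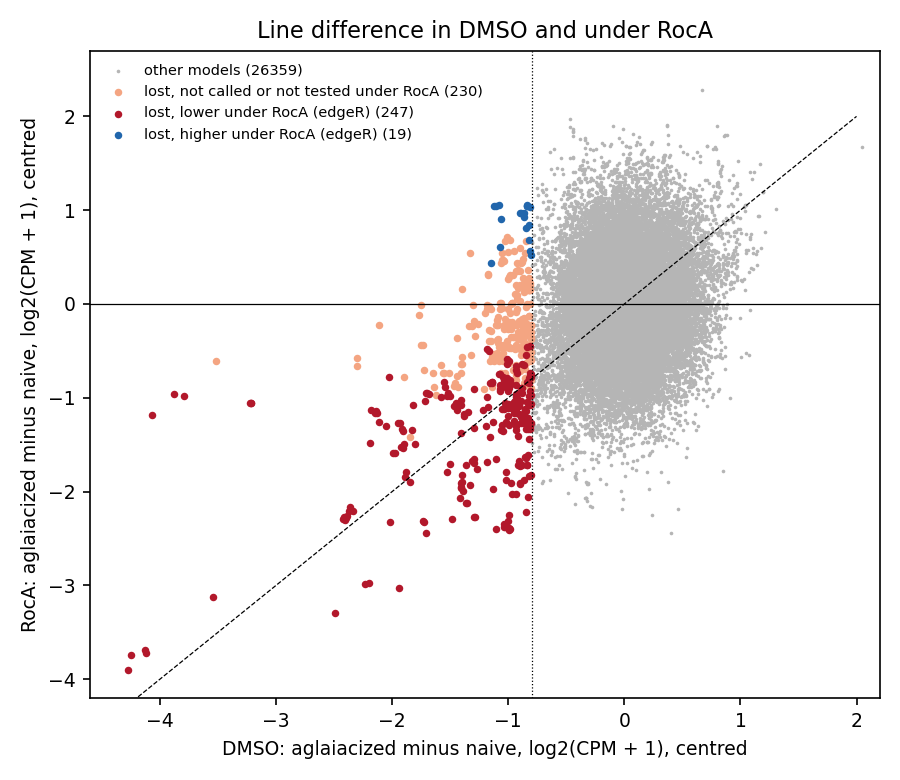
Line difference under RocA (y axis) against that in DMSO (x axis), both aglaiacized minus naive on the centred log2(CPM + 1) scale, with each lost model coloured by its edgeR call under RocA and other models in grey. Of the lost models tested, 247 are called lower in aglaiacized cells under RocA and 19 higher, and the 35 with a DMSO difference of -2 or less hold no higher call.

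Several row groups kept a large difference under RocA. The 337-unit model with the deepest loss had 24.3 CPM in naive RocA and 0.96 CPM in aglaiacized RocA. Its line difference under RocA was -4.88 in log2 (SE 0.36, edgeR adjusted p = 3.8e-21). All 5 models of its row group were called lower. A model of 201 units went from 11.5 and 12.8 CPM in naive DMSO to 31.8 CPM in naive RocA. It had 1.12 and 1.37 CPM in aglaiacized DMSO and 2.89 CPM in aglaiacized RocA, and its line difference under RocA was -3.68 (SE 0.28, edgeR adjusted p = 1.1e-20). In both models each naive library exceeded every aglaiacized library, with or without RocA. The 3 models of a row group of 853 to 1285 units behaved alike, and the longest had 12.4 CPM in naive RocA and 0.96 CPM in aglaiacized RocA.

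A 550-unit model, 1 of 7 in a row group that was called lower throughout, had 181 CPM in naive RocA and 42.3 CPM in aglaiacized RocA. Its line difference under RocA was -2.32 (SE 0.14, edgeR adjusted p = 1.4e-26), and its mean was 5.76-fold lower in aglaiacized DMSO and its value 4.28-fold lower under RocA. The model of 552 units had 539 CPM in naive RocA and 160 CPM in aglaiacized RocA, with a line difference of -1.97 (SE 0.12, edgeR adjusted p = 9.6e-27). Both were among the most footprinted lost models, so counting error is small here. As a ratio of CPM, the difference was smaller under RocA than in DMSO in the first. In the second it was larger, at 3.37-fold under RocA against 2.78-fold in DMSO. A row group of 6 models of 2400 to 2624 units went further in this direction. Its longest model had 11.4 and 9.77 CPM in naive DMSO and 4.41 and 4.78 CPM in aglaiacized DMSO. With RocA it had 74.5 CPM in naive and 15.8 CPM in aglaiacized cells, a line difference of -2.46 (SE 0.19, edgeR adjusted p = 1.3e-20). Its CPM was higher with RocA in both lines, and the gap between them was wider there.

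In uc004epr.3 the difference between the lines was smaller under RocA than in DMSO. The naive RocA library had 7.30 CPM, far below both naive DMSO values, and the aglaiacized RocA library had 3.25 CPM, close to both aglaiacized DMSO values. Its line difference under RocA was -1.39 in log2 (SE 0.33, edgeR adjusted p = 6.7e-04). As a ratio of CPM the difference was 2.25-fold under RocA, where in DMSO it was 22.5-fold. For uc004efw.4 the RocA libraries had 10 counts in naive and 2 in aglaiacized cells, a ratio of 5.06 with a 95% counting interval of 1.08 to 47.5. Its adjusted p was 0.037 in edgeR, and it ran from 0.054 to 0.13 without a filter on low counts, with total-count scaling and in DESeq2.

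In a minority of lost models the order of the lines turned under RocA. The rule for printed identifiers named uc001wrd.1 and uc003iqq.4, the largest of the higher calls with at least 20 counts in each RocA library and more than 20 rows apart. The first, of 1508 length units, had 26.9 and 29.8 CPM in naive and 16.1 and 14.0 CPM in aglaiacized DMSO. With RocA it had 3.41 CPM in naive and 9.50 CPM in aglaiacized cells, 2.79-fold higher, with a line difference of 1.26 in log2 (SE 0.33, edgeR adjusted p = 0.0016). The second, of 194 units, had 23.8 and 26.7 CPM in naive DMSO, 14.5 and 12.03 CPM in aglaiacized DMSO, 5.35 CPM in naive RocA and 10.8 CPM in aglaiacized RocA. It was 2.02-fold higher under RocA, with a line difference of 0.79 in log2 (SE 0.29, edgeR adjusted p = 0.031). In both, the naive RocA library was below all 5 others. The second call is marginal: its adjusted p was 0.054 without either naive DMSO replicate and 0.17 in DESeq2.

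The 958-unit model of rows 76001 to 77000 was among the most footprinted of this kind. It had 219 and 217 CPM in naive and 97.4 and 101 CPM in aglaiacized DMSO, then 29.2 CPM in naive and 52.3 CPM in aglaiacized RocA. Its line difference under RocA was 0.62 (SE 0.15, edgeR adjusted p = 0.0010). The 798-unit model, the most footprinted of all, had 48.7 CPM in naive and 70.9 CPM in aglaiacized RocA, and its difference of 0.32 (SE 0.14) missed the threshold at an edgeR adjusted p of 0.069. A model of 1734 units rests on 1 count in naive RocA against 13 in aglaiacized RocA, a ratio of 12.8 with an interval of 1.93 to 546. Neighbouring models of 509 and 543 units had 0 counts in naive RocA and 3 counts each in aglaiacized RocA, so no ratio is given for them.

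The line difference under RocA also varied within row groups. It spread over a median of 0.156 within row groups of 2 or more and by up to 2.21, and 12 row groups held models with either sign. The widest was the row group that holds uc001wrd.1. Of its 11 lost models, 8 were called lower under RocA, among them one of 633 units with 57.7 CPM in naive and 29.8 CPM in aglaiacized RocA. The remaining calls were higher, for uc001wrd.1 and for the model of 2601 units, which had 7.54 CPM in naive and 16.4 CPM in aglaiacized RocA. Another row group held 6 models of 147 to 193 units, all called lower, and 1 of 577 units that was not called, with 3.16 CPM in naive and 5.53 CPM in aglaiacized RocA. Nearby rows that shared a loss in DMSO thus did not always share the outcome under RocA.

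Lower calls under RocA were found inside and outside the densest bins. Inside the 6 bins, 119 of 205 lost models tested were called lower under RocA (58.0%), and 20.1% of the other models there were. Outside them it was 128 of 290 (44.1%), and 15.2% of the other models. The median line difference under RocA was -0.84 inside and -0.74 outside.

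Responses to RocA within each line use the DMSO libraries that chose the lost models. The choice favours high naive and low aglaiacized DMSO values, which moves the naive response down and the aglaiacized response up, so the responses are given as values only. The response, log2((RocA CPM + 1)/(mean DMSO CPM + 1)), had a median of -0.79 in naive cells for lost models and -0.61 for the others. In aglaiacized cells it was -0.12 for lost models and -0.29 for the others. The edgeR calls rest on the same DMSO libraries, so nothing is read from them. In naive cells 203 lost models were called lower with RocA and 133 higher, where 33.9% and 32.4% of all models tested were. In aglaiacized cells 67 were called lower and 137 higher, where 24.3% and 24.5% of all were. Without TMM scaling the naive calls became 315 lower and 67 higher, where 53.2% and 18.4% of all were, with the median of all models at -0.68. The aglaiacized calls became 124 lower and 93 higher, where 37.97% and 13.8% of all were, with that median at -0.34. In aglaiacized cells the more frequent direction of these calls turned with the scaling, and the shares of all models shifted too. The share of lost models called lower was 13.5%, and 25.1% without TMM scaling, below that of all both times. The share called higher was 27.7% and 18.8%, above that of all both times, the side to which the choice moves them.

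Lost models were also split by their naive response. Of 129 with a naive response below -1.5, 13 had a line difference under RocA of -0.80 or less, and their median was 0.01. Of 175 between -1.5 and -0.5 it was 72, with a median of -0.66, and of 136 between -0.5 and 0.5 it was 97, with a median of -1.06. All 56 with a naive response of 0.5 or more stayed at -0.80 or less, with a median of -1.91. The other models in these 4 classes had medians of 0.58, 0.18, -0.20 and -0.62. Of them, 2 of 5269, 92 of 8935, 563 of 7962 and 1396 of 4193 were at -0.80 or less. The naive RocA library enters both measures, which orders the classes by itself, and the naive DMSO libraries also entered the rule. In each class the median of the lost models was below that of the others, which is a description and not a test.

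**Figure D5:**
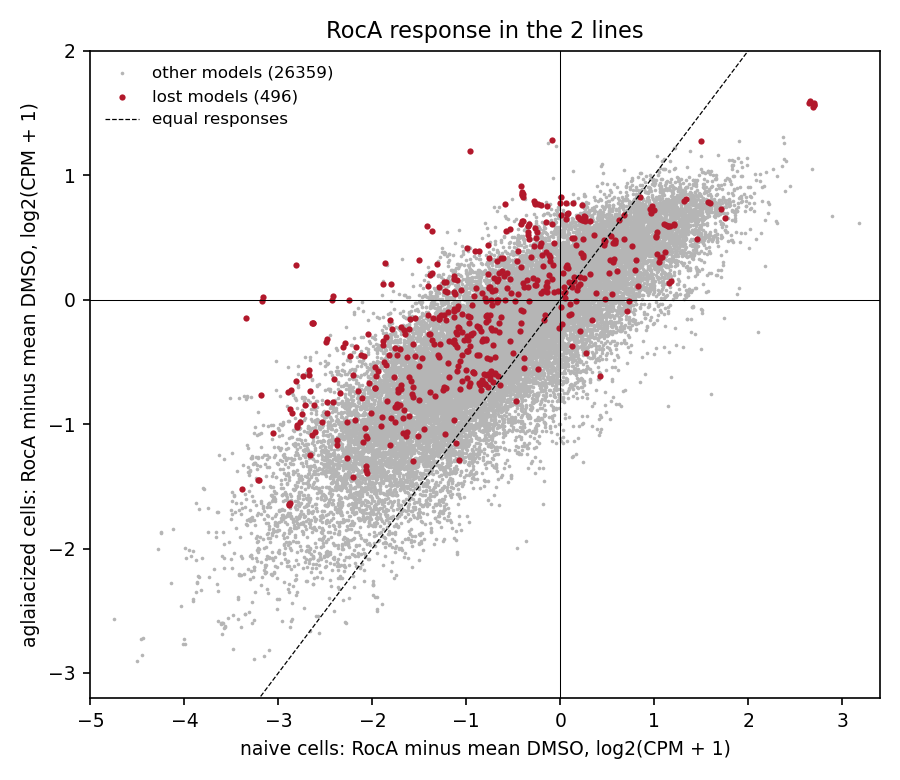
RocA response in aglaiacized cells (y axis) against that in naive cells (x axis), each as RocA minus mean DMSO on the log2(CPM + 1) scale, not centred, with lost models in colour, others in grey and equal responses on the dashed line. Most lost models lie above the dashed line, the side to which their selection moves them, and the 6 models of 2400 to 2624 units stand at the upper right, near 2.7 in naive and 1.58 in aglaiacized cells.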

How the data were processed

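Footprints were sequenced from the 6 libraries after RNase I digestion, ribosome pelleting and rRNA depletion, per the labels' protocols. The authors deposited raw counts per transcript, with no normalization, beside a length with no stated unit. Per the submitters' processing notes, the tools were CASAVA 1.8, Bowtie2 2.1.0 and TopHat2 2.0.9 and the build was hg19. How footprints were counted, reads with several matches included, is not given in the sources used here. Of 82960 rows, 19269 had no length and 0 counts and stayed out. Rows with equal counts in all 6 libraries were merged, which turned 50582 rows with a length and a count into 38543 models. CPM used library totals over these models.

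The members, the rule and the lists were chosen with earlier results of these data known. The quasi-likelihood test of edgeR 4.0.16 (R 4.3.3), with TMM scaling, was fitted to 4 groups over 6 libraries with 2 residual degrees of freedom. It covered the 31237 models whose mean count reached 20. The spread came from the DMSO pairs, since each RocA group had 1 library. Two-sided p-values were adjusted after Benjamini and Hochberg, and 0.05 was the threshold. The SE was obtained from the log2 fold change and the square root of F. DESeq2 1.42.0 was an alternative. Scripts were tested on simulated data. Identifiers printed were, by a fixed rule, the 2 lost models with the lowest DMSO line difference among those with at least 100 counts in each naive DMSO library and 10 over both aglaiacized DMSO libraries, and the 2 with the largest higher call under RocA and at least 20 counts in each RocA library. Both pairs were more than 20 rows apart. Other lost models with values were chosen after their values were seen. A ratio on few counts has an exact 95% binomial interval.

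The replicate numbers of the DMSO libraries did not pair them: deviations from the group means correlated at -0.0539 over models, and nothing in the labels ties a number to a shared culture or day. No gene names, sequences or RNA amounts were used.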

Additional observations from a re-analysis of the deposited data

How the results depend on the processing

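The number of lost models was 152 with a pseudocount of 5 CPM in place of 1 and 730 with 0.1 CPM, 241 at a threshold of -1, and 391 in libraries thinned to the smallest total, of which 323 were among the 496, and leaving out 1 DMSO library gave 470 to 627. Row groups numbered 193 at a gap of 10 rows, 213 at 3 and 169 at 20. The median line difference under RocA was -0.43 with the pseudocount of 5 CPM and -0.56 without centring, and -0.81 to -0.66 without 1 DMSO library. With 1 model per row group, 99 of 193 were called lower under RocA and 7 higher, where 15.3% and 12.5% of all were. Higher calls under RocA numbered 30 of 495 with total-count scaling, where 21.4% of all were. In DESeq2 they were 3 of 380, where 8.07% of all were. With total-count scaling, RocA responses in naive cells gave 315 of 495 lower (63.6%) and 67 higher (13.5%), where 53.2% and 18.4% of all were. DESeq2 gave 129 of 495 lower (26.1%), where 22.0% of all were. At a mean count of at least 100 it was 109 of 279 (39.1%), where 38.9% of all were. With 1 per row group it was 79 of 193 lower (40.9%) and 59 higher (30.6%), where 33.9% and 32.4% of all were. In aglaiacized cells they gave 124 lower with total-count scaling, 30 lower in DESeq2, and 28 lower and 57 higher with 1 per row group. The cause of these shifts was not tested, and some of the settings hold fewer models. In aglaiacized cells higher calls outnumbered lower ones by 137 to 67, and with total-count scaling lower calls outnumbered higher ones by 124 to 93. The median line difference under RocA was below 0 in every setting run for it. With the replicate number as a block over the DMSO libraries, 495 lost models were lower, a count that the rule fixes and that says nothing about the block; the RocA libraries carry no number, so no other paired fit was possible. The alternatives with 1 model per row group, other gaps and without the 6 densest bins were chosen after seeing the data. Depth limits models near the floor of 3 counts in the RocA libraries, the smallest of the 6.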
